A study of Rattus norvegicus albus with 14 samples.

Results

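The genes described here are 10 feedback genes of inflammatory signalling, measured by RNA sequencing in cultured neonatal rat ventricular myocytes. They are the mRNA-decay factors Zfp36, Zfp36l1 and Zfp36l2, the IκB genes Nfkbia, Nfkbib, Nfkbie and Nfkbiz, the ubiquitin-editing pair Tnfaip3 and Tnip1, and the immediate early gene Ier3. They were taken by symbol, and all 10 were found among the 32545 genes of the count tables, with 1 Ensembl gene each. The cells were heart muscle cells of 1-day-old Sprague-Dawley rats, pooled, preplated to remove fibroblasts and grown in serum-free medium. The vehicle group received 1% dimethyl sulfoxide (DMSO) for 0.5 h. The treated groups received 10 µmol/L rosiglitazone, a thiazolidinedione that activates the nuclear receptor PPARγ, in 1% DMSO for 0.5, 24 or 48 h, so that every group carried DMSO. There was 1 vehicle library and 2 libraries at each time of rosiglitazone, 7 in all. Each library was deposited as 2 columns that agreed within sampling noise, and these were summed and counted as 1 sample. Vehicle cells of 24 or 48 h were not analysed here, and in any comparison between times the drug and the time in culture cannot be told apart.

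NF-κB transcription factors are held in the cytoplasm by IκB proteins, and signals that destroy IκB let them enter the nucleus. Several genes that NF-κB switches on encode its own inhibitors, among them Nfkbia and Tnfaip3, so the response limits itself. Another brake acts on the messages: ZFP36 (tristetraprolin) and its relatives bind AU-rich elements in cytokine and growth-factor mRNAs and recruit the deadenylase that shortens them. Zfp36 and Ier3 are also immediate early genes, whose mRNA rises soon after serum, stress or cytokine stimulation.

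Libraries held 10886559 to 28074620 counts, and replicate 2 of 48 h was the shallowest. Levels are given in CPM, counts relative to library size after scaling by the trimmed mean of M values (TMM). Errors are the SD of 2 libraries or the SE of a fitted log2 fold change. Levels are compared between groups for the same gene and not between genes, because gene lengths were not used. The labels do not say whether replicates are separate cultures, so the p-values measure the spread of these libraries alone, and that spread may be technical. The single DMSO library has no spread of its own, and its tests take the spread from the rosiglitazone groups. Over the tested genes, the SD of the log2 difference between replicates was 0.81 at 0.5 h of rosiglitazone, 1.60 at 24 h and 1.23 at 48 h.

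The labels state a nearly pure myocyte culture. Markers of that cell type were present and their level differed widely between libraries. The summed level of 11 of 12 cardiomyocyte markers was 8214 CPM in DMSO, 14299 and 13791 at 0.5 h of rosiglitazone, 11388 and 2465 at 24 h, and 258 and 1512 at 48 h. Fibroblast markers (9 of 10) summed to 50354 to 51920 CPM at 0.5 h, 32812 to 35189 at 24 h and 17539 to 33750 at 48 h. At 0.5 h these sums came mainly from Col1a1 and Col3a1, and the markers did not move together. For 48 against 0.5 h of rosiglitazone, 3 had a positive and 6 a negative fold change. Among the positive, Dcn was at 808 and 994 CPM at 0.5 h and 8477 and 4549 at 48 h. Macrophage markers (14 of 14) summed to 1104 CPM in DMSO and to 180 to 523 in the 6 rosiglitazone libraries. Endothelial markers (8 of 9) summed to 380 to 430 CPM at 0.5 h and 159 to 214 in the later libraries. Smooth muscle markers (7 of 7) summed to 3854 to 4513 CPM at 0.5 h and 246 to 1427 later. No marker was at 0 in all libraries, and the macrophage genes Cd163 and Adgre1 and the pericyte gene Rgs5 were at 0 in some. In bulk RNA, fewer cells of a type and less RNA per cell cannot be told apart, and the part of these shifts in the results that follow was not tested.

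Among the decay factors, Zfp36 differed most between groups. Zfp36 (ENSRNOG00000058388) was at 43.2 CPM in DMSO, 151 and 125 at 0.5 h of rosiglitazone, 39.8 and 30.8 at 24 h, and 69.1 and 77.1 at 48 h. The 4 groups did not overlap, and their order from low to high was 24 h, DMSO, 48 h and rosiglitazone at 0.5 h. The level at 0.5 h of rosiglitazone was 3.20-fold that of the vehicle library (log2 fold change 1.68 ± 0.36 SE, edgeR unadjusted p = 0.0019, adjusted p = 1). It was 3.92-fold lower at 24 h than at 0.5 h (log2 fold change -1.97 ± 0.28, adjusted p = 0.068) and 2.07-fold higher at 48 h than at 24 h (1.05 ± 0.28, adjusted p = 0.33). Averaged over the 4 libraries of 24 and 48 h against the 3 of 0.5 h, Zfp36 fell by 0.89 ± 0.21 on the log2 scale (adjusted p = 0.035). That fall is measured mainly from the 2 rosiglitazone libraries of 0.5 h, since the DMSO library lay inside the range of the later libraries. The call was lost without either rosiglitazone library of 0.5 h (log2 fold change -0.55, adjusted p = 0.40, without replicate 1, and -0.67, adjusted p = 0.28, without replicate 2) and without either library of 48 h (adjusted p = 0.068 and 0.058). It was also lost with the replicate number as a block (-0.86, adjusted p = 0.11).

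Zfp36l1, which encodes a paralog with the same paired zinc fingers, held a nearly level course. Zfp36l1 (ENSRNOG00000058646) was at 241 CPM in DMSO, 318 and 283 at 0.5 h of rosiglitazone, 333 and 226 at 24 h, and 367 and 355 at 48 h. The 24 h libraries spanned the values of DMSO and of rosiglitazone at 0.5 h, and the 48 h libraries were the highest. Its log2 fold changes ran from -0.10 ± 0.29 SE (24 h against 0.5 h) to 0.37 ± 0.29 (48 h against 24 h) over the 5 comparisons, and none passed. Zfp36l2 (ENSRNOG00000005067), the remaining paralog, had 7 reads in DMSO, 1 read in replicate 2 of 48 h and 0 reads in the other 5 libraries. In those 5, a count of 0 allows up to 3 reads, or 0.107 to 0.123 CPM before scaling, for counting error only. Zfp36l2 did not pass the filter on low counts, so 9 of the 10 genes were tested.

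The make-up of the pooled reads of the paralogs also differed between groups. Zfp36 gave 15.2% of the reads of the 3 paralogs in DMSO, 32.3% and 30.7% at 0.5 h of rosiglitazone, 10.7% and 12.0% at 24 h, and 15.8% and 17.9% at 48 h. No 95% Wilson interval was wider than 2.20 percentage points, and these intervals cover counting error only. The share in both 0.5 h rosiglitazone libraries lay above that in every other library. Shares of reads are not shares of molecules, since the genes differ in length.

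**Figure D1:**
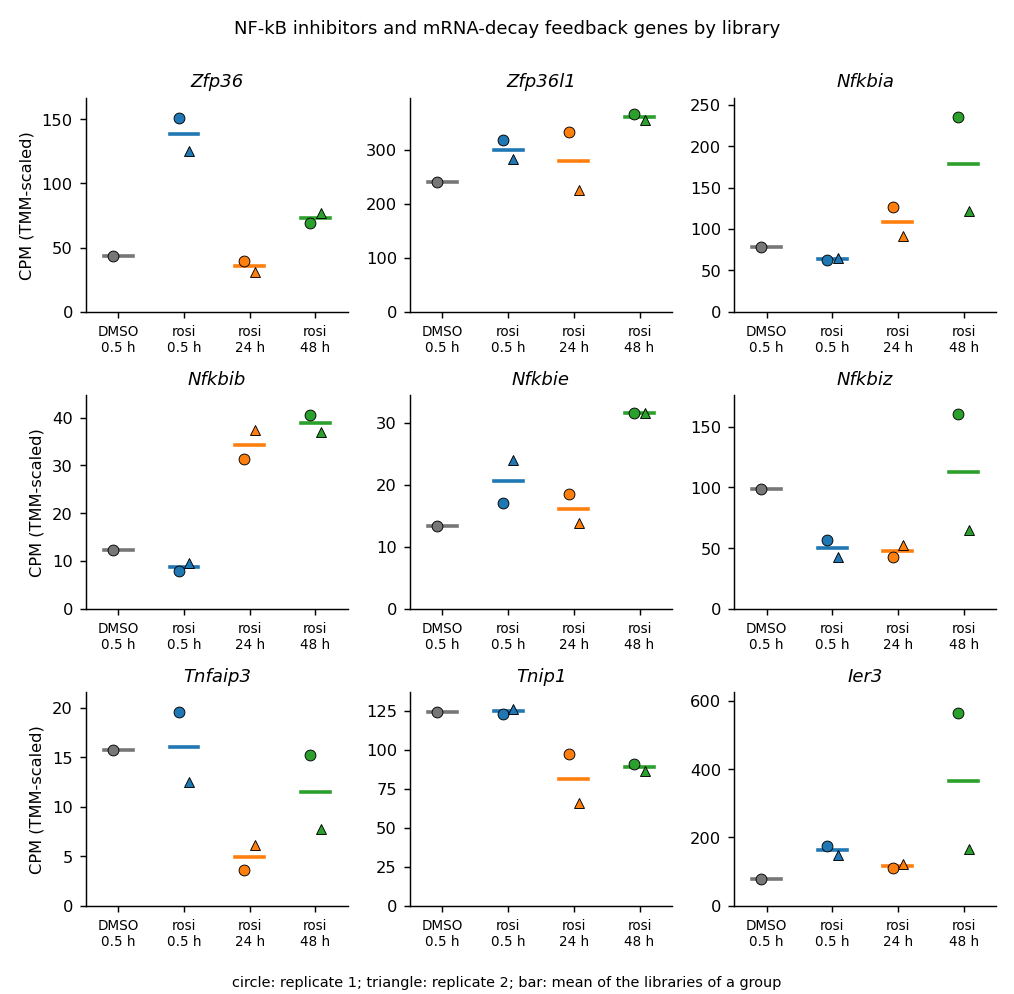
Level of 9 of the 10 genes in each library, in TMM-scaled CPM on a linear axis from 0, by group, with bars for group means (Zfp36l2, at most 7 reads, is left out). Zfp36 is highest at 0.5 h of rosiglitazone (151 and 125 CPM), Nfkbib is higher in all 4 libraries of 24 and 48 h, and Nfkbia, Nfkbiz, Tnfaip3 and Ier3 stand apart between the 2 libraries of 48 h.

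The IκB genes did not move as a block. Nfkbib, which encodes IκBβ, a cytoplasmic inhibitor that is resynthesised slowly, was the gene with the clearest change. Nfkbib (ENSRNOG00000020063) was at 12.3 CPM in DMSO, 8.00 and 9.49 at 0.5 h of rosiglitazone, 31.3 and 37.4 at 24 h, and 40.6 and 37.0 at 48 h. All 4 later libraries lay above all 3 libraries of 0.5 h, while the 24 and 48 h libraries overlapped. It rose 4.44-fold from 0.5 to 48 h of rosiglitazone (8.74 ± 1.05 to 38.8 ± 2.51 CPM, SD, n = 2, edgeR adjusted p = 0.016). In the 4 later libraries against the 3 of 0.5 h it rose 3.72-fold (log2 fold change 1.90 ± 0.25 SE, adjusted p = 0.0070). At 24 h it was already 3.93-fold above 0.5 h (1.97 ± 0.32, adjusted p = 0.078). The call at 48 h was lost without either rosiglitazone library of 0.5 h (adjusted p = 0.17 and 0.11) and without either library of 48 h (0.10 and 0.050), with log2 fold changes of 2.01 to 2.28. The call over all later libraries was lost only without rosiglitazone 0.5 h replicate 1, among the libraries left out in turn (log2 fold change 1.74, adjusted p = 0.062).

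Nfkbia encodes IκBα, the inhibitor that NF-κB itself induces and that ends the first wave of signalling. Nfkbia (ENSRNOG00000007390) was at 78.2 CPM in DMSO, 62.8 and 64.4 at 0.5 h of rosiglitazone, 126 and 91.5 at 24 h, and 235 and 122 at 48 h. Its 4 later libraries also lay above all 3 libraries of 0.5 h, but replicate 2 of 48 h did not exceed the higher library of 24 h. The difference between 48 and 0.5 h was 2.81-fold (log2 fold change 1.49 ± 0.36 SE, edgeR adjusted p = 0.055). Over all later libraries it was 2.05-fold (1.03 ± 0.28, adjusted p = 0.055), so Nfkbia missed the threshold narrowly in both. DESeq2 called it in both (adjusted p = 0.0031 and 0.0069). Without replicate 1 of 48 h the difference between 48 and 0.5 h was 0.91 on the log2 scale (adjusted p = 0.27).

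Nfkbie encodes IκBε, an inhibitor with a later course than IκBα. Nfkbie (ENSRNOG00000019907) was at 13.3 CPM in DMSO, 17.1 and 24.0 at 0.5 h of rosiglitazone, 18.6 and 13.8 at 24 h, and 31.5 and 31.6 at 48 h. The 48 h libraries were the highest and nearly equal, and the libraries of 24 h overlapped those of 0.5 h rosiglitazone. The difference between 48 and 24 h was 1.95-fold (log2 fold change 0.97 ± 0.36 SE, edgeR unadjusted p = 0.028, adjusted p = 0.52).

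Nfkbiz encodes IκBζ, a nuclear family member that acts on a subset of NF-κB target genes instead of holding NF-κB in the cytoplasm. Nfkbiz (ENSRNOG00000031163) was at 98.7 CPM in DMSO, 56.8 and 42.7 at 0.5 h of rosiglitazone, 42.8 and 52.6 at 24 h, and 160 and 64.5 at 48 h. DMSO lay above all rosiglitazone libraries of 0.5 and 24 h and between the 2 libraries of 48 h. Rosiglitazone at 0.5 h was 1.98-fold below DMSO (log2 fold change -0.99 ± 0.51 SE, edgeR adjusted p = 1), and 48 h was 2.36-fold above 24 h (1.24 ± 0.44, adjusted p = 0.50). The macrophage markers, like Nfkbiz, were higher in DMSO than in the rosiglitazone libraries of 0.5 h, and their part in this difference was not tested.

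Among the reads of the 3 classical IκB genes, Nfkbia gave 64.0% to 76.5% in the 7 libraries, with no order by time. Nfkbib gave 11.9% in DMSO, 9.09% and 9.69% at 0.5 h of rosiglitazone, 17.8% and 26.2% at 24 h, and 13.2% and 19.4% at 48 h. Nfkbie gave 19.5% and 24.5% in rosiglitazone at 0.5 h and 9.64% to 16.6% in the other 5 libraries. The widest 95% Wilson interval of these shares was 4.15 percentage points. The Nfkbib share was thus higher in all 4 later libraries than in the 3 of 0.5 h, and the Nfkbie share was highest in the 0.5 h rosiglitazone libraries.

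**Figure D2:**
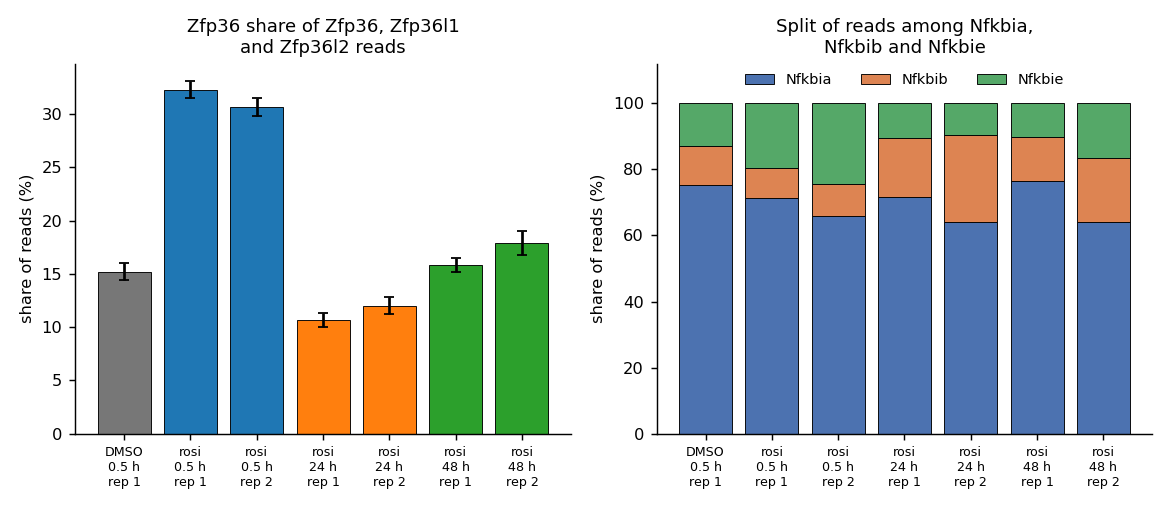
Left, Zfp36 as a share of the reads of Zfp36, Zfp36l1 and Zfp36l2 in each library, in percent, with 95% Wilson intervals as error bars. Right, the split of reads among Nfkbia, Nfkbib and Nfkbie in each library, in percent. The Zfp36 share is 32.3% and 30.7% in the 0.5 h rosiglitazone libraries and 10.7% to 17.9% elsewhere, and the Nfkbib share is larger at 24 and 48 h.

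Tnfaip3 encodes A20, an enzyme that edits ubiquitin chains and shuts off signalling to NF-κB, and Tnip1 encodes ABIN1, which binds A20 and ubiquitin. Tnfaip3 (ENSRNOG00000049517) was at 15.8 CPM in DMSO, 19.6 and 12.5 at 0.5 h of rosiglitazone, 3.63 and 6.18 at 24 h, and 15.2 and 7.72 at 48 h. Both libraries of 24 h were below every other library. The difference between 24 and 0.5 h was 3.26-fold (log2 fold change -1.71 ± 0.54 SE, edgeR unadjusted p = 0.014, adjusted p = 0.20), and that between 48 and 24 h was 1.23 ± 0.53 on the log2 scale (adjusted p = 0.62).

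Tnip1 had a smaller and steadier course. Tnip1 (ENSRNOG00000010370) was at 124 CPM in DMSO, 123 and 126 at 0.5 h of rosiglitazone, 97.0 and 65.9 at 24 h, and 90.6 and 86.7 at 48 h. The 3 libraries of 0.5 h were nearly equal and lay above all 4 later libraries. The later libraries were 1.47-fold lower (log2 fold change -0.55 ± 0.21 SE, edgeR unadjusted p = 0.031, adjusted p = 0.13), which did not pass.

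Ier3 encodes a short-lived stress protein linked to survival and to ERK signalling. Ier3 (ENSRNOG00000000827) was at 78.8 CPM in DMSO, 175 and 149 at 0.5 h of rosiglitazone, 111 and 121 at 24 h, and 565 and 165 at 48 h. DMSO was the lowest library, the 0.5 h rosiglitazone libraries lay above those of 24 h, and 1 library of 48 h stood far above the rest. The difference between rosiglitazone and DMSO at 0.5 h was 2.06-fold (log2 fold change 1.04 ± 0.65 SE, edgeR adjusted p = 1). That between 48 and 24 h was 1.65 ± 0.52 on the log2 scale (adjusted p = 0.42), and 0.49 without replicate 1 of 48 h. Against 0.5 h, the 48 h value was 1.17 ± 0.51 with both libraries, -0.01 without replicate 1 and 1.80 (adjusted p = 0.049) without replicate 2.

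Counted over the tested members, few passed the threshold in any comparison. For rosiglitazone against DMSO at 0.5 h, 0 of 9 passed by edgeR, against 0.0% of the 15655 genes tested, and 0 by DESeq2, which called 0.0128% of the genes fitted. At an unadjusted p under 0.05 there was 1 (Zfp36, higher), against 0.607% of all genes. Fitted on the libraries of 0.5 h alone, 3 members were called: Zfp36 and Ier3 higher and Nfkbiz lower, on 1 residual degree of freedom, where that fit called 1.18% of its genes. For 24 h against 0.5 h, 0 of 9 passed by edgeR (0.0958% of all genes), 3 had an unadjusted p under 0.05 (15.7% of all genes), and DESeq2 called 2, Zfp36 lower and Nfkbib higher, where it called 7.67% of all genes. For 48 h against 24 h, 0 passed by edgeR (0.0% of all genes) and DESeq2 called Zfp36, higher, where it called 3.14% of all genes. In that comparison 4 had an unadjusted p under 0.05, all higher, where 2.8% of all genes were higher at that level. For 48 h against 0.5 h, 1 of 9 rose (Nfkbib) and 0 fell, where 1.97% of all genes rose, 4.62% fell and 6.59% passed in either direction. DESeq2 called 3 there, Zfp36 lower and Nfkbia and Nfkbib higher, against 16.1% of all genes. For all later libraries against all of 0.5 h, 1 rose (Nfkbib) and 1 fell (Zfp36), where 4.11% of all genes rose, 7.29% fell and 11.4% passed in either direction. DESeq2 called the same 3 members there as at 48 h, against 21.3% of all genes. In the same comparison, all later libraries lay above all of 0.5 h for 2 of 9 members (Nfkbia and Nfkbib; 14.2% of all genes) and below them for 1 (Tnip1; 19.5% of all genes).

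The second day was the interval in which the fold changes of the members had 1 sign. From 24 to 48 h, all 9 had a positive fold change (46.2% of all genes did), with a median log2 fold change of 0.97, against -0.01 over all genes. For Tnip1 the sign depended on 1 library: its value of 0.12 became -0.15 without replicate 2 of 24 h. In 6 of 9 both libraries of 48 h exceeded both of 24 h, as 14.5% of all genes did. From 0.5 to 24 h, 2 of 9 had a positive fold change (48.4% of all genes), with a median of -0.35 against -0.03 over all genes. At 0.5 h, 6 of 9 were higher in rosiglitazone than in DMSO (51.7% of all genes), with a median of 0.02. The comparisons of 24 h with 0.5 h and of 48 h with 24 h share the 24 h libraries, so a low value at 24 h enters both with opposite sign.

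**Figure D3:**
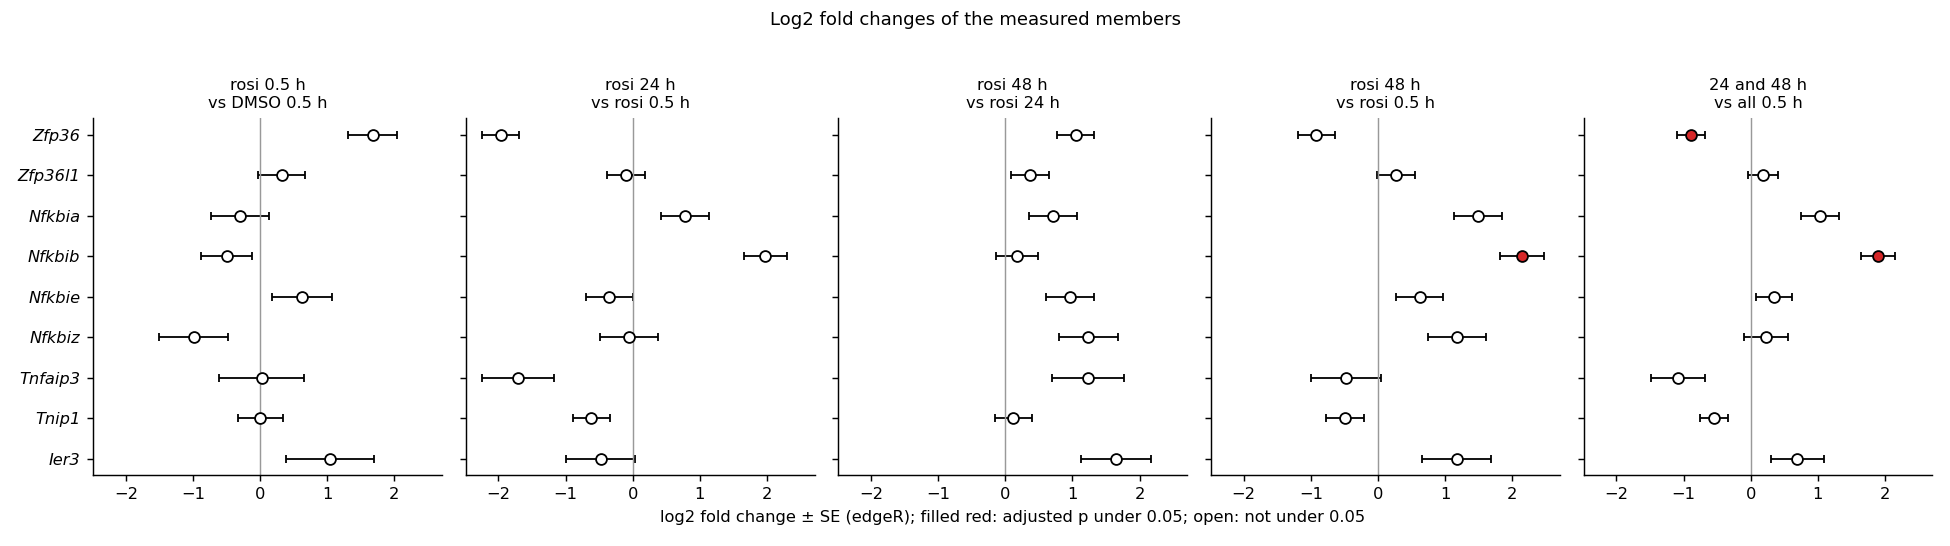
Log2 fold change ± SE of the 9 tested genes in 5 comparisons (x axis), with filled red points for an edgeR adjusted p under 0.05. The filled points are Nfkbib at 48 against 0.5 h (2.15) and, for all later libraries against all of 0.5 h, Nfkbib (1.90) and Zfp36 (-0.89).

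For 4 members the 2 libraries of 48 h stood well apart, so the size of the second-day change depended on 1 library. In Ier3, Nfkbiz and Tnfaip3 both libraries of 48 h still exceeded both of 24 h, and in Nfkbia only replicate 1 did. Between replicates 1 and 2 of 48 h, Ier3 differed 3.41-fold, Nfkbiz 2.48-fold, Tnfaip3 1.96-fold and Nfkbia 1.92-fold, each higher in replicate 1. In size, these differences were above those of 95.4%, 91.8%, 85.6% and 84.9% of 10500 genes with a mean of at least 5 CPM. The remaining 5 tested members differed by at most 1.12-fold between the same libraries, where the median of those genes was 1.29-fold. At 24 h no member differed by more than 1.69-fold (Tnfaip3), where the median gene differed 1.50-fold. At 0.5 h the largest difference was 1.56-fold, again for Tnfaip3.

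**Figure D4:**
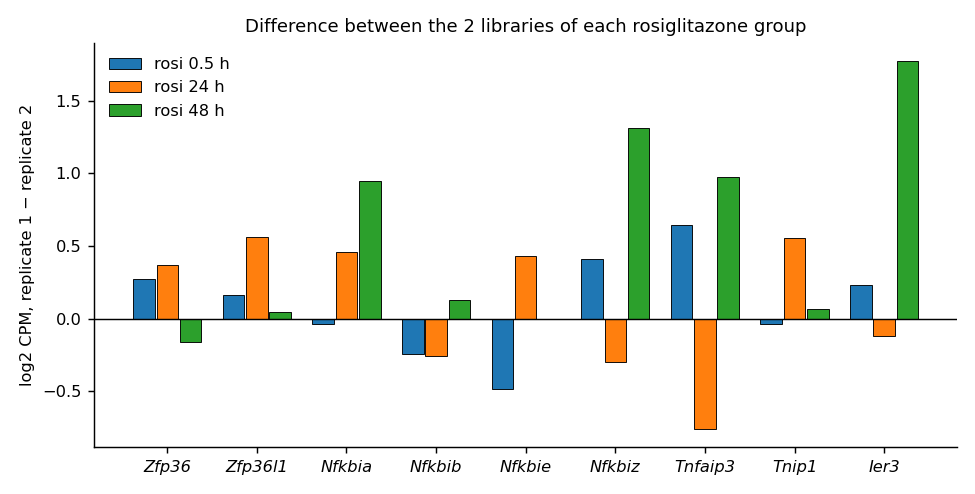
Difference in log2 CPM between replicate 1 and replicate 2 of each rosiglitazone group (y axis) for the 9 tested genes; bars above 0 mean more in replicate 1. At 48 h, Nfkbia, Nfkbiz, Tnfaip3 and Ier3 are higher in replicate 1 by 0.94 to 1.77, and the other 5 genes differ by at most 0.16.

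Genes that NF-κB is known to induce separated the 48 h libraries in the same direction as those 4 members. Of 27 tested inflammatory genes of this kind, 20 were over 2-fold higher in replicate 1 of 48 h and 1 in replicate 2, where 11.8% and 13.0% of all genes were. Ptgs2, which makes prostaglandins, was at 651 and 22.5 CPM, the chemokine gene Cxcl1 at 852 and 217, and Il6 at 58.3 and 4.74. Cardiomyocyte markers went the other way, with all 11 over 2-fold lower in replicate 1, as were 7 of 7 smooth muscle and 6 of 9 fibroblast markers. Of 14 macrophage markers, 6 were over 2-fold lower in replicate 1 and 0 over 2-fold higher. By any amount, 9 were lower and 5 higher. The part of these marker differences in the values of the 4 members was not tested.

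The wider pathway was described by 7 lists of genes outside the members. Of 5 NF-κB subunit genes, 2 rose and 0 fell from 0.5 to 48 h, where 1.97% of all genes rose and 4.62% fell. Both belong to the branch that needs processing of p100: Relb and Nfkb2. Relb was at 21.2 CPM in DMSO, 21.1 and 20.3 at 0.5 h of rosiglitazone, 35.2 and 33.9 at 24 h, and 68.3 and 70.7 at 48 h, in steps that did not overlap (log2 fold change 48 against 0.5 h 1.75 ± 0.28 SE, edgeR adjusted p = 0.016). Nfkb2 was at 50.5 CPM in DMSO, 45.5 and 42.8 at 0.5 h of rosiglitazone, and 109 and 92.0 at 48 h (1.19 ± 0.26, edgeR adjusted p = 0.042). Rela, the main activating subunit, was at 54.6 to 77.4 CPM in all 7 libraries (-0.02 ± 0.28 at 48 against 0.5 h). Nfkb1 was at 237 and 115 CPM at 48 h and 83.5 to 102 in the other 5 libraries. Both calls were lost without replicate 1 of 48 h (Relb 1.73, adjusted p = 0.11; Nfkb2 1.02, adjusted p = 0.20), and also without replicate 2 of 48 h or either rosiglitazone library of 0.5 h.

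Of 25 tested genes of the receptors, adaptors and kinases upstream, 0 passed by edgeR in any comparison, and 5 were higher and 2 lower at an unadjusted p under 0.05 for 48 against 0.5 h, where 9.65% of all genes were higher and 13.3% lower. Without either 24 h library a few of the 25 passed, in that comparison and over all later libraries. Calls over the whole table also changed widely with a library left out. Such changes, here and in the other lists, are therefore not read as results about a list. For 48 against 0.5 h the median log2 fold change of the 25 was 0.20, against -0.07 over all genes. Of 18 tested genes listed as other feedback inhibitors, Birc3 rose and Pdlim2 fell from 0.5 to 48 h, where 1.97% of all genes rose and 4.62% fell. Whether these genes inhibit NF-κB in these cells was not tested. Birc3, an inducible ubiquitin ligase, was at 4.03 to 10.3 CPM in the 5 libraries before 48 h and 137 and 35.3 at 48 h (log2 fold change 4.13 ± 0.70 SE, edgeR adjusted p = 0.020). Pdlim2, linked to degradation of nuclear RelA, was at 39.6 and 51.2 CPM at 0.5 h of rosiglitazone and 6.33 and 9.48 at 48 h (-2.53 ± 0.44, adjusted p = 0.022). Bcl3, a nuclear IκB relative, was called in the 4 later libraries against the 3 of 0.5 h (1.21 ± 0.29, adjusted p = 0.039). Over all later libraries this list had 2 genes that rose and 1 that fell, where 4.11% of all genes rose and 7.29% fell. Without replicate 1 of 48 h, the calls of this list were lost in both comparisons (log2 fold change over all later libraries 1.36 for Birc3 and -1.76 for Pdlim2). For 48 against 0.5 h, 0 passed without either rosiglitazone library of 0.5 h, and Pdlim2 was lost without replicate 2 of 48 h.

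Among the 27 inducible inflammatory genes, 4 rose from 0.5 to 48 h and 0 fell, where 1.97% of all genes rose and 4.62% fell. The 4 were Sod2, Cxcl3, Cxcl1 and Lcn2, the last chosen after its values were seen. Sod2, the mitochondrial superoxide dismutase, was at 175 and 216 CPM at 0.5 h of rosiglitazone, 532 and 418 at 24 h, and 2533 and 1190 at 48 h (log2 fold change 3.25 ± 0.43 SE, edgeR adjusted p = 0.013). The list's median log2 fold change was 1.68 from 24 to 48 h, against -0.01 over all genes. In that comparison 24 of 27 were positive, as were 46.2% of all genes. For rosiglitazone against DMSO at 0.5 h the list's median was -0.36. Without replicate 1 of 48 h, 0 of these genes passed at 48 against 0.5 h (Sod2 2.57, adjusted p = 0.068). Without replicate 2 of 48 h more of these genes rose, and without either rosiglitazone library of 0.5 h none did. The counts also changed without either library of 24 h. Calls over the whole table changed with a library left out as well. Over all later libraries 4 rose (4.11% of all genes) and 1 fell (7.29% of all genes), the fall being that of Plau, which encodes urokinase (-3.45 ± 0.60, edgeR adjusted p = 0.015). That count became 2 and 2 without replicate 1 of 48 h, and 0 genes passed without either rosiglitazone library of 0.5 h. Tnf, a classical target of both NF-κB and ZFP36, had 0 reads in all 7 libraries, which allows at most 0.276 CPM in the shallowest.

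**Figure D5:**
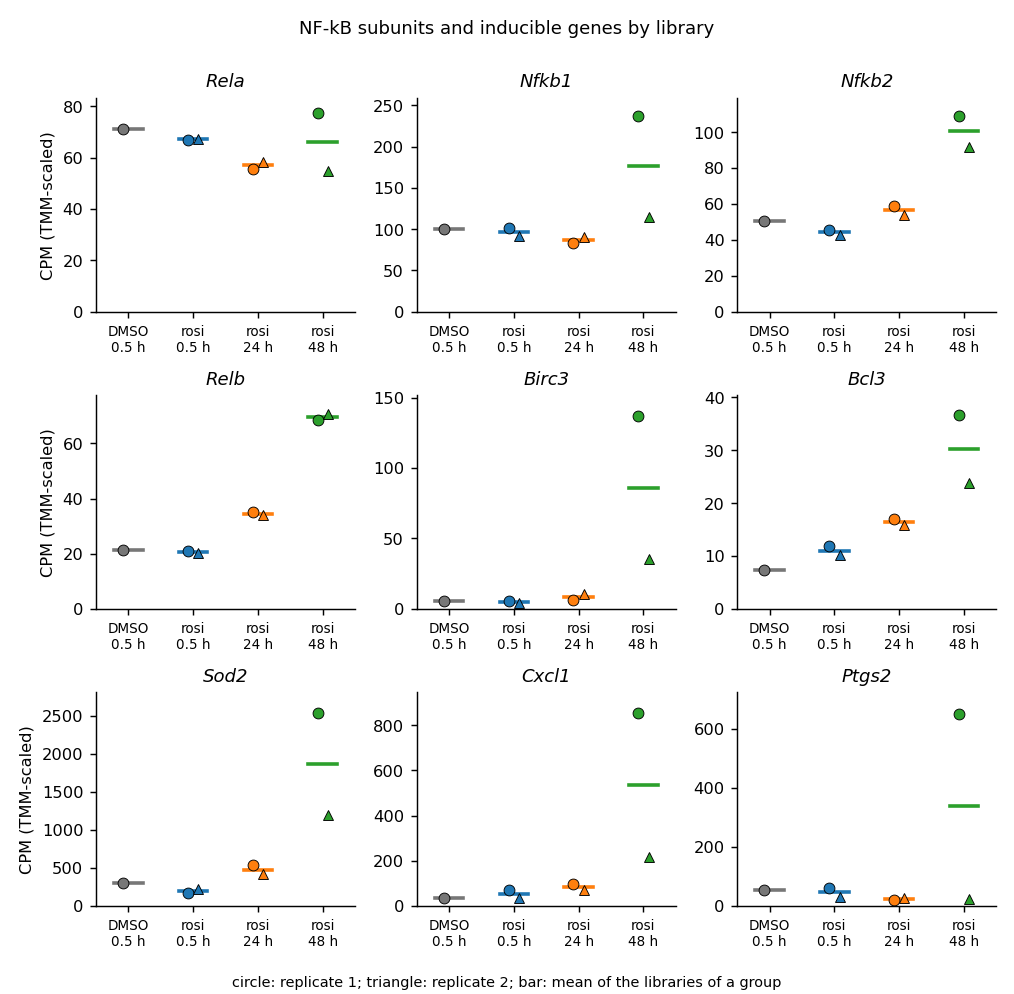
Level of 9 genes of the NF-κB pathway outside the members in each library, in TMM-scaled CPM on a linear axis from 0, by group, with bars for group means. Relb steps up from 20.3 to 21.2 CPM at 0.5 h to 68.3 and 70.7 at 48 h with close replicates, while Birc3, Cxcl1 and Ptgs2 are far higher in replicate 1 of 48 h than in replicate 2.

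Of 35 tested mRNA-decay factors outside the members, 1 rose from 0.5 to 48 h, the deadenylase cofactor Btg1 (171 and 209 CPM to 1055 and 504, log2 fold change 2.04 ± 0.39 SE, edgeR adjusted p = 0.030). Of all genes 1.97% rose there, and 1 of 35 is near that share. In the later libraries against all of 0.5 h, Btg1 and the deadenylase subunit Cnot7 rose, and Btg2 and Hnrnpd, which encodes the AU-rich element binding protein AUF1, fell. In this comparison 4.11% of all genes rose and 7.29% fell. Without replicate 1 of 48 h, or without either rosiglitazone library of 0.5 h, 0 decay factors passed in either comparison. At 48 against 0.5 h, more decay factors passed without either library of 24 h, and calls over the whole table also changed with a library left out. The median log2 fold change of this list was 0.07 at 48 against 0.5 h, against -0.07 over all genes. Zc3h12a, which encodes the endonuclease regnase-1, was at 33.2 CPM in DMSO, 17.2 and 7.41 at 0.5 h of rosiglitazone, 21.0 and 18.0 at 24 h, and 66.5 and 19.7 at 48 h. Its order of levels, with DMSO above 0.5 h rosiglitazone and 1 high library at 48 h, resembles that of Nfkbiz.

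ZFP36 is held inactive by the p38 kinase pathway and reactivated by phosphatases. Of 12 tested genes of this group, 0 rose and 2 fell at 48 against 0.5 h, where 1.97% of all genes rose and 4.62% fell. The 2 were Dusp1, a phosphatase that switches p38 off, and the p38-activating kinase Map2k6, the latter chosen after its values were seen. Dusp1 was at 43.8 CPM in DMSO, 118 and 100 at 0.5 h of rosiglitazone, 17.3 and 19.4 at 24 h, and 40.9 and 34.4 at 48 h. This is the order seen for Zfp36 except that DMSO lay above 48 h. Dusp1 also fell at 24 against 0.5 h (-2.57 ± 0.29, edgeR adjusted p = 0.036), a call lost without any 1 of the 5 libraries of 0.5 or 48 h. Mapkapk2, the kinase that phosphorylates ZFP36, was at 196 to 210 CPM in the 3 libraries of 0.5 h and 209 to 385 in the later ones (log2 fold change 0.65 ± 0.23 SE, edgeR adjusted p = 0.11). Without replicate 1 of 48 h the call of Dusp1 at 48 against 0.5 h was lost (-1.70, adjusted p = 0.12), and over all later libraries it held (-1.85, adjusted p = 0.024), but it was lost there without either rosiglitazone library of 0.5 h. The calls at 48 against 0.5 h were also lost without either rosiglitazone library of 0.5 h and without replicate 2 of 48 h, and 1 of the 2 was lost without DMSO. Leaving out either 24 h library also changed the counts of this group, at 48 against 0.5 h and over all later libraries. Calls over the whole table changed with a library left out as well.

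The mRNAs that ZFP36 is known to bind differed in direction between comparisons. From 24 to 48 h, 17 of 19 tested had a positive fold change (46.2% of all genes did), though 0 passed by edgeR. At an edgeR unadjusted p under 0.05, 10 were higher, where 2.8% of all genes were, and 0 were lower. Between the libraries of 48 h, 12 of the 19 were over 2-fold higher in replicate 1 and 2 in replicate 2. Of all genes, 11.8% and 13.0% were. The size of this second-day change therefore depended largely on 1 library. Of the 19, 1 rose and 3 fell from 0.5 to 48 h, where 1.97% of all genes rose and 4.62% fell. Cxcl1 rose, and Fos, Ccnd1 and Dusp1 fell. The median log2 fold change of the 19 was 0.28 for rosiglitazone against DMSO at 0.5 h, -0.81 for 24 against 0.5 h and 1.20 for 48 against 24 h. Over all genes these medians were 0.01, -0.03 and -0.01. Fos was at 78.8 CPM in DMSO, 227 and 173 at 0.5 h of rosiglitazone, and 3.22 to 14.0 in the later libraries. The calls of these targets at 48 against 0.5 h were lost without replicate 1 of 48 h or either rosiglitazone library of 0.5 h. Without replicate 2 of 48 h more rose and fewer fell, and calls over the whole table also changed with a library left out. Over all later libraries, Fos was at -4.31 without replicate 1 of 48 h (edgeR adjusted p = 0.017). Cxcl1, Cxcl2, Il6, Ptgs2 and Ccl2, among others, stand in both this list and the inflammatory list, and Dusp1 also stands in the p38 list, so their counts are not separate.

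Single genes followed the course of a member closely over the 7 libraries, as a description. By Pearson correlation of log2 CPM over 7 libraries, among 10006 genes, those most like Zfp36 were Sema3b (r = 0.98), Ift81 (0.93), RT1-Bb (0.92), Dusp1 (0.91) and Slc2a8 (0.90). Those most like Nfkbia were March3 (0.99), Lpar4, Cxcl3 (0.98 for both), F13a1 and Dscr3 (0.97 for both). Cxcl3 was at 10.2 to 16.2 CPM at 0.5 h, 47.7 and 35.2 at 24 h, and 553 and 96.2 at 48 h. Those most like Tnfaip3 were Col4a3 (0.98), Ppil4, Lbr, Cttnbp2nl and Sun1 (each 0.97). The points share their libraries and scaling, and no p is given.

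Between members, the correlations were mixed. Nfkbia and Nfkbib had r = 0.82 over the 7 libraries, and so had Zfp36l1 and Nfkbie. Nfkbib and Tnip1 had the lowest value, r = -0.87, with Nfkbib high and Tnip1 low in the later libraries. Zfp36 had r = 0.45 with Zfp36l1 and -0.62 with Nfkbib.

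The deposited tables also pair each gene with a human homolog and the percent identity of the proteins. Among the members this was 98.5% for Zfp36l1, 93.2% for Zfp36l2 and 81.6% for Zfp36. It was 91.7% for Nfkbia, 81.6% for Nfkbib, 80.3% for Nfkbie and 74.2% for Nfkbiz, and 85.4%, 81.2% and 73.1% for Tnfaip3, Tnip1 and Ier3.

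In the authors' deposited table for rosiglitazone against DMSO at 0.5 h, 6 of the 9 members listed had an adjusted p under 0.05, 4 higher (Zfp36, Zfp36l1, Nfkbie and Ier3) and 2 lower (Nfkbia and Nfkbiz), where 5.07% of the genes listed there were higher and 5.96% lower. The authors' deposited table for 24 against 0.5 h had 2 members higher (Nfkbia and Nfkbib) and 4 lower (Zfp36, Tnfaip3, Tnip1 and Ier3), where 17.8% and 21.2% of genes were. The authors' deposited table for 48 against 24 h had 5 higher (Zfp36, Tnfaip3, Nfkbie, Nfkbiz and Ier3) and 0 lower, where 6.99% and 9.46% of genes were. These values rest on the same counts, with each library present as 2 columns, and are no independent check.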

How the data were processed

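RNA sequencing counts per gene were deposited by the authors in 3 tables, 1 for each comparison, with DESeq2-style log2 fold changes, p-values and adjusted p-values and the percent identity to human homologs. FastQC 0.11.5, cutadapt 1.11, HTSeq and DESeq2, and the builds Rnor_6.0 and hg19, are named in the submitters' processing notes, without roles. The aligner is not given in the sources used here. The series title speaks of mice, whereas the gene identifiers are those of the rat. Each table had 33005 rows for 32545 genes, and 460 repeated rows were dropped. The 2 columns of a library agreed within sampling noise by a chi-square test (smallest p = 0.11) and were summed.

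All 7 libraries in 4 groups were fitted together with edgeR 4.0.16 (R 4.3.3), using TMM scaling, filterByExpr at a minimum count of 10, and the robust quasi-likelihood test. This left 15655 genes and 3 residual degrees of freedom, with a common biological coefficient of variation of 0.51. Adjusted p-values are Benjamini-Hochberg values over all tested genes, and rose, fell and called mean an adjusted p under 0.05. DESeq2 1.42.0 was an alternative. The fit was also run on counts simulated around 1 mean per gene, with known changes added and the fitted dispersions. These lack the marker shifts and the unequal spread between groups seen here, and no result rests on them. Totals of 10886559 to 28074620 counts make counting error small beside the spread between libraries.

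The members and lists were chosen with earlier results of these data known. Of 200 list entries, 195 matched by symbol. Named were all members, fixed pathway genes, and the genes of each pathway list with the smallest unadjusted p and a mean of at least 5 CPM. Up to 4 were taken by the p of all later libraries against those of 0.5 h. Up to 4 more were taken by the p of rosiglitazone against DMSO at 0.5 h. For the list of genes like a member, the 5 highest Pearson correlations over 7 libraries were taken. The lists were: NF-κB subunits, upstream signalling, other feedback inhibitors, inducible inflammatory genes, other mRNA-decay factors, ZFP36 regulation by p38 and phosphatases, and AU-rich target mRNAs. Leaving libraries out of the list counts was chosen after seeing the data. RefSeq sequences and coordinates were not used here.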

Additional observations from a re-analysis of the deposited data

How the results depend on the processing

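Over 45 member results and 567 alternatives, 520 kept direction and side of the threshold, 27 newly passed, 10 no longer passed and 10 reversed. The only calls among the 45 were Nfkbib at 48 against 0.5 h and, over all later libraries, Nfkbib and Zfp36. Most of the 520 were therefore results that did not pass in either setting, and all 10 losses fell on these calls. Members called for rosiglitazone against DMSO at 0.5 h numbered 0, and 3 with only the groups compared. For 24 h against 0.5 h they numbered 0, and 2 with the DESeq2 Wald test, with no filter and at an adjusted p of 0.10 (0 to 2 with a library left out). For 48 h against 24 h they numbered 0, and 1 with DESeq2. For 48 h against 0.5 h they numbered 1, and 3 with DESeq2, at 0.10 and with only the groups compared, and 2 with no filter (0 to 3 with a library left out). For all later against all 0.5 h libraries they numbered 2, and 3 with DESeq2, with no filter and at 0.10 (0 to 4 with a library left out). With the replicate number as a block they numbered 0, 0, 0, 1 and 1 in the 5 comparisons. No pairing by replicate number was seen: deviations of same-numbered libraries correlated at -0.08, 0.06 and -0.12. With 1 deviation per group, these values cannot settle whether same-numbered libraries belong together.

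Genes called over the whole table differed by more than 1.5 times: 15 against 1200 with DESeq2, 334 with no filter, 206 at 0.10 and 1 with the block (24 against 0.5 h), 1031 against 2526, 1936 at 0.10, 407 with the block and 2733 with only the groups compared (48 against 0.5 h), and 1786 against 3337, 3028 at 0.10 and 785 with the block (all later). They were 0 against 492 with DESeq2 and 19 with no filter (48 against 24 h), and 0 against 2 with DESeq2, 1 with no filter and 174 with only the groups compared (0.5 h). With a library left out they ran from 12 to 2706 for 48 against 0.5 h and from 288 to 3965 for all later libraries.

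All reversals came from leaving out 1 library, and the cause was not tested. With a library left out in turn, the log2 fold change at 0.5 h ran from -0.33 (without rosiglitazone 0.5 h replicate 1) to 0.31 for Tnfaip3. It ran from -0.013 (without rosiglitazone 0.5 h replicate 2; -0.0070 without 24 h replicate 1) to 0.020 for Tnip1. At 24 against 0.5 h it ran from -0.42 to 0.13 (without 24 h replicate 2) for Zfp36l1, and from -0.25 to 0.16 (without rosiglitazone 0.5 h replicate 1; 0.076 without 24 h replicate 1) for Nfkbiz. For 48 against 24 h Tnip1 ran from -0.15 (without 24 h replicate 2) to 0.44, and for 48 against 0.5 h Ier3 ran from -0.0076 (without 48 h replicate 1) to 1.80. Over all later libraries Nfkbiz ran from -0.26 (without 48 h replicate 1; -0.032 without rosiglitazone 0.5 h replicate 2) to 0.57. Depth limits Zfp36l2, which was not tested.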
